A study of Drosophila melanogaster with 18 samples.

Results

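Indy and Hydr2 are 2 Drosophila genes, of 6980 named on these arrays, whose RNA fell under dithiothreitol (DTT) in control and XBP-1 RNAi cells but not on the arrays labelled IRE1 RNAi. They were chosen by the DTT effect in these 3 arms, measured on the same arrays, as candidates for IRE1-dependent mRNA decay. Their DTT effects and the differences of those effects between arms are therefore given as a description, with intervals and ranks but no test. Each gene has 1 probe, read by its number as the CG gene number: 3979 for Indy and 3488 for Hydr2. The platform's own symbols were set aside, since they equalled the gene of that number for 1 of 4657 probes; the platform lists CG7755 for the Indy probe.

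Indy ("I'm not dead yet") is a plasma-membrane transporter of citrate and other dicarboxylate and tricarboxylate intermediates, of the SLC13 family, and lowered Indy activity is known for extending fly lifespan. Hydr2 is a member of the alpha/beta-hydrolase family. IRE1 is a kinase and nuclease of the endoplasmic reticulum (ER) membrane that senses unfolded protein and splices XBP-1 mRNA, which then encodes a transcription factor of the unfolded protein response. In fly cells IRE1 activity is also known to lower many mRNAs that are translated at the ER membrane, a process called regulated IRE1-dependent decay, which does not need XBP-1. DTT reduces disulphide bonds and so causes proteins to misfold in the ER.

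The samples were total RNA of Schneider 2 (S2) cells, an embryo-derived line with features of blood cells, on 18 spotted 2-colour arrays in 6 groups of 3. The control arm was mock-treated without double-stranded RNA, and the other arms received double-stranded RNA against XBP-1 or IRE1 in 3 rounds, so an RNAi arm differs from control in having received double-stranded RNA at all. Each arm was measured untreated and with DTT at 2 mM for 7.4 hours, started a day after the last round. Replicates carry the letters A, B and C; nothing says that they were separate cultures, so errors and p-values cover only how these arrays scatter, and that scatter may be technical. All values below are log2 ratios of the sample (Cy5) to a common reference (Cy3) pooled from S2 cells with and without DTT and from embryos. The base and direction of the ratio are not stated in the table, and both are readings made here. Values span too much for base 10, but natural logarithms remain possible, and folds and percentages would then be larger changes than printed. Were the ratio reference over sample, every fall would be a rise of the same size (8.3-fold for Indy and 5.88-fold for Hydr2 in DTT-treated control cells) and ranks would run the other way. Sample over reference is the likelier reading, because the known stress-induced chaperone gene Hsc70-3 rose and markers of other tissues, which the embryos of the reference could supply, were low under it.

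An array held 3755 to 6696 values of the 7257 probes, the fewest on replicate A labelled IRE1 RNAi with DTT, and array medians ran from -0.81 to 0.24. No scaling between arrays was added, so the median DTT effect over all probes was 0.15 in control cells, -0.08 with XBP-1 RNAi and -0.24 on the arrays labelled IRE1 RNAi, and each effect below is best read against that value. On control arrays without DTT, all 6 measured markers of other tissues lay below the median of all probes, at a median log2 ratio of -1.84 against -0.28. Of 6 blood-cell markers, 4 also lay below it, at a median of -0.90, in a ratio whose reference itself holds S2 RNA. The Ire1 probe goes against the labels. It stood at 2.06, 2.06 and 0.13 on the arrays labelled IRE1 RNAi without DTT and at 0.80, 2.55 and 2.20 with DTT, against -1.08 to 0.41 on the other 12 arrays. What lies behind this was not tested, so those arrays are named by their label throughout. The 2 Xbp1 probes averaged -1.13 ± 0.26 and -0.85 ± 0.22 (SD, n = 3) under XBP-1 RNAi without DTT, against -0.75 ± 0.57 and -0.44 ± 0.45 in control cells.

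Both genes were measured on all 18 arrays. In control cells without DTT, Indy had log2 ratios of 1.05, -0.33 and 0.30 on replicates A, B and C, and with DTT of -2.09, -3.17 and -2.88. Every DTT array lay below every array without DTT, by at least 1.76, and Indy moved from the 64.9th to 94.9th percentile of an array's probes to the 0.2nd to 0.8th. With XBP-1 RNAi, Indy had ratios of 0.12, -0.45 and 0.24 without DTT and of -2.15, -1.0 and -2.0 with DTT. The groups again did not overlap, with a gap of 0.55, and replicate B was the least lowered. On the arrays labelled IRE1 RNAi, Indy had ratios of 0.15, 0.82 and 0.14 without DTT and of -0.11, 1.01 and 0.31 with DTT. These groups overlapped throughout, and with DTT Indy stayed at the 75.2nd to 96.6th percentile. In these bulk samples fewer cells of a kind and less RNA per cell cannot be told apart.

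Hydr2 had ratios of 1.15, 0.19 and 0.66 in control cells without DTT, and of -1.55, -2.37 and -1.75 with DTT. The gap between the groups was 1.74, and the DTT arrays placed Hydr2 at the 1.1st to 4.3rd percentile. With XBP-1 RNAi the ratios were 0.66, 0.21 and 1.16 without DTT and -1.11, -1.61 and -1.51 with DTT. All 3 DTT arrays were below all 3 others, by at least 1.32. On the arrays labelled IRE1 RNAi the ratios were 0.93, 0.48 and 0.58 without DTT and 1.01, 0.74 and 0.12 with DTT. Those groups overlapped, and Hydr2 stayed at the 91.8th to 95.4th percentile with DTT.

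**Figure D1:**
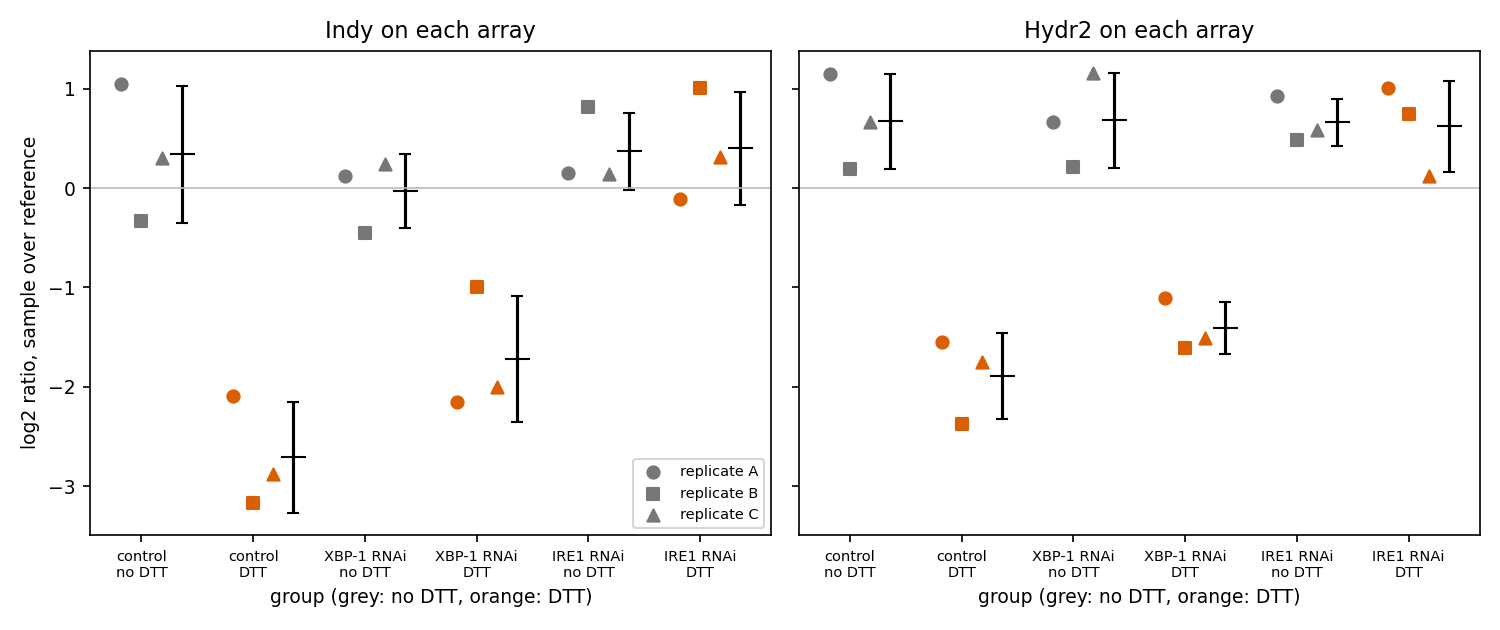
Log2 ratio of sample to reference for Indy and Hydr2 on each of the 18 arrays, by RNAi arm and DTT; coloured points are replicates A, B and C, and black bars beside them the group mean ± SD. In control and XBP-1 RNAi cells all 3 DTT arrays lie below the 3 arrays without DTT, while on the arrays labelled IRE1 RNAi the groups overlap.

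As a background for those gaps, all 3 DTT arrays lay below all 3 others for 395 of 4485 probes with all 6 values in control cells (8.81%), for 878 of 4228 with XBP-1 RNAi (20.8%) and for 949 of 3454 on the arrays labelled IRE1 RNAi (27.5%). These shares count falls only, on arrays without added scaling.

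In the limma fit over all probes, Indy changed with DTT by -3.05 ± 0.41 (SE, n = 3 against 3) in control cells, which leaves 12% of the level without DTT (95% interval 6.75% to 21.5%). Of 5935 probes tested there, 11 had a lower effect. With XBP-1 RNAi the effect was -1.69 ± 0.41, leaving 31.1% (17.5% to 55.2%), and 242 of 5649 probes were lower. On the arrays labelled IRE1 RNAi it was 0.03 ± 0.41, leaving 102% (57.5% to 182%). Hydr2 changed by -2.56 ± 0.36 in control cells, leaving 17.0% (10.2% to 28.3%), with 25 probes lower. Its effect was -2.09 ± 0.36 with XBP-1 RNAi, leaving 23.5% (14.2% to 39.1%), with 104 probes lower. On the arrays labelled IRE1 RNAi it was -0.04 ± 0.36, leaving 97.3% (58.4% to 162%). At an adjusted p under 0.05, 4.45% of all probes fell and 7.25% rose in control cells, 11.8% fell and 4.53% rose with XBP-1 RNAi, and 10.5% fell and 3.48% rose on the arrays labelled IRE1 RNAi. The balance of falls and rises depends on the scaling: with array medians centred, 717 fell and 704 rose in control cells, against 264 and 430, then 933 and 825 against 665 and 256 with XBP-1 RNAi, and 802 and 519 against 610 and 203 on the arrays labelled IRE1 RNAi. Because these contrasts chose both genes, nothing is read from their place against those shares.

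**Figure D2:**
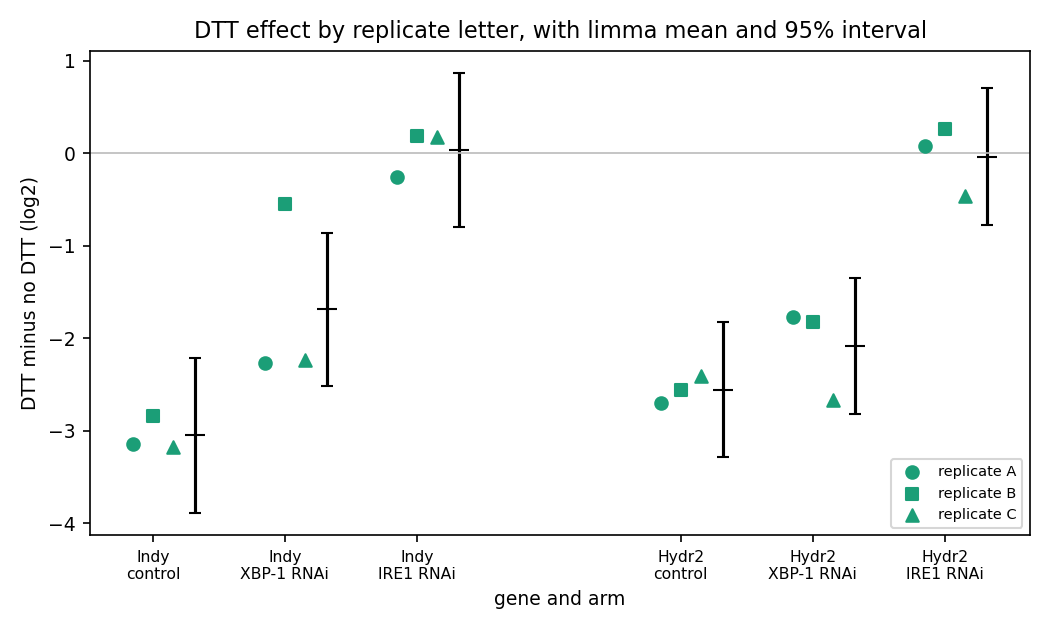
DTT effect on the log2 scale for Indy and Hydr2 in each arm: coloured points are the differences between the arrays with and without DTT of the same replicate letter, and black bars the limma estimate with its 95% interval. Intervals in control and XBP-1 RNAi cells lie below 0, and those on the arrays labelled IRE1 RNAi span 0.

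Taken by replicate letter, the control fall was the most even of the 3 arms for both genes. For Indy the differences at letters A, B and C were -3.14, -2.84 and -3.18 in control cells, -2.27, -0.55 and -2.24 with XBP-1 RNAi, and -0.26, 0.19 and 0.17 on the arrays labelled IRE1 RNAi. The small fall at letter B makes the XBP-1 RNAi arm the least even for Indy, with an SD of 0.98 against 0.19 in control cells and 0.25 on the arrays labelled IRE1 RNAi. For Hydr2 they were -2.70, -2.56 and -2.41, then -1.77, -1.82 and -2.67, then 0.08, 0.26 and -0.46, with SDs of 0.15, 0.51 and 0.37. Hydr2 was also the steadier probe within groups, with a pooled SD of 0.40 against 0.55 for Indy and a median of 0.43 over the 2737 probes with all values.

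The DTT effect on Indy was 3.09 ± 0.57 higher on the arrays labelled IRE1 RNAi than in control cells (95% interval 1.91 to 4.26), and no probe of 5594 exceeded it. The same difference was 2.52 ± 0.51 for Hydr2 (1.48 to 3.55), with 3 probes above it. Over all probes 0.0536% passed the threshold upwards in that comparison, a share from which nothing is read about Indy and Hydr2, whose choice used this difference. Among probes it did not choose, Ugt302C1, a UDP-glycosyltransferase gene named here after its values were seen, passed upwards. Ugt302C1 rose on the arrays labelled IRE1 RNAi, by 3.64, and had 0.80 in control cells and 1.07 with XBP-1 RNAi. Downwards, 2 probes passed. A fit with a replicate block passed 30 upwards and 123 downwards, and centring of array medians passed 36 upwards and 28 downwards.

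Against XBP-1 RNAi, the effect on the arrays labelled IRE1 RNAi was 1.72 ± 0.57 higher for Indy (0.55 to 2.89) and 2.05 ± 0.50 higher for Hydr2 (1.02 to 3.08). Of 5417 probes, 13 and 6 had a larger difference. In limma 0 probes passed upwards there (0.0%), against 61 with a raw p under 0.05 and 12 with the replicate block. In the remaining comparison the intervals of the genes overlapped, and the genes were not tested against each other. The fall of Indy was 1.37 ± 0.57 smaller with XBP-1 RNAi than in control cells (0.20 to 2.54), while for Hydr2 the difference was 0.47 ± 0.51 (-0.56 to 1.50), an interval that holds 0. The Indy value includes the small fall at letter B of the XBP-1 RNAi arm (-0.55). Over all probes 0.802% passed downwards in that comparison and 0 upwards, with 50 upwards at a raw p under 0.05 in limma, and 27 with the replicate block. Without control DTT replicate A, 0 of 5199 probes passed in either direction.

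Within DTT-treated cells, the arrays labelled IRE1 RNAi held 8.67-fold more Indy than control cells and 5.71-fold more Hydr2. They held 4.35-fold more Indy and 4.09-fold more Hydr2 than XBP-1 RNAi cells. Ordered by mean level, Indy was lowest in control cells with DTT (-2.71 ± 0.56, SD), then in XBP-1 RNAi cells with DTT (-1.72 ± 0.63), whose values overlapped. A step of 1.69 without overlap led to the other 4 groups, which ran from -0.03 to 0.40 with neighbours overlapping. Hydr2 was lowest in the same 2 groups (-1.89 ± 0.43 and -1.41 ± 0.26, overlapping). A step of 2.03 without overlap separated them from the other 4, which lay between 0.62 and 0.68.

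Without DTT neither gene differed detectably between arms, although the same arrays enter the DTT effects that chose the genes. Indy was -0.37 ± 0.41 apart from control with XBP-1 RNAi (interval -1.20 to 0.46, limma adjusted p = 0.959) and 0.03 ± 0.41 apart on the arrays labelled IRE1 RNAi (adjusted p = 0.999). Hydr2 differed by 0.01 ± 0.36 (adjusted p = 0.995) and by -0.00 ± 0.36 (adjusted p = 0.999). Across all probes 0 of 5729 (0.0%) and 0 of 5914 (0.0%) passed in these comparisons, with 77 and 24 at a raw p under 0.05, and 2 and 1 with the replicate block.

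The other probes were searched for the same pattern. Of 5312 tested in every arm, 208 fell in both control and XBP-1 RNAi cells, and 161 of those also fell on the arrays labelled IRE1 RNAi, where the median effect of the 208 was -1.68. The pattern was defined as a fall in control and XBP-1 RNAi cells, no fall on the arrays labelled IRE1 RNAi, and an effect there at least 1 log2 unit above both others. It was met by 12 probes (0.226%), with Hydr2 at rank 3 and Indy at rank 4 by the smaller of the 2 differences (2.05 and 1.72). The pattern restates the rule that chose the genes, so their place in it is a description. The number depends on the setting: it was 20 with array medians centred, 30 with quantile normalization and 7 without XBP-1 RNAi DTT replicate C.

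SPARC, a secreted collagen-binding matrix protein, led them, with effects of -3.54 ± 0.40 in control cells, -3.57 ± 0.40 with XBP-1 RNAi and -1.03 ± 0.40 on the arrays labelled IRE1 RNAi (limma adjusted p = 0.0857 for the last). Its estimate on those arrays lay below those of Indy and Hydr2, which were near 0. Tsp42Ee, a tetraspanin of the cell membrane, had effects of -2.82, -2.33 and -0.24 in the same order. Serinc, a multi-pass membrane protein, had -1.40, -1.57 and -0.01, but the control call was lost without control replicate C without DTT and the XBP-1 RNAi call without that arm's replicate A without DTT. The secreted chemokine-like orion had -2.25, -1.97 and -0.65. Sumo, a small protein modifier of the nucleus and cytoplasm that does not enter the ER, had -2.13, -2.09 and -0.54. The remaining genes named by the rule had -1.54, -1.72 and -0.20 (CG44325), -2.34, -1.86 and -0.55 (CG3984), and -2.78, -2.17 and -0.96 (CG5888). The XBP-1 RNAi call of CG3984 was lost without replicate B without DTT. For the 10 probes beside Indy and Hydr2, the difference from control in the DTT effect had limma adjusted p-values from 0.0693 to 0.511. None thus passed in the fit without added scaling or replicate block. Over all probes 3 passed upwards in that fit. The number was 30 with the replicate block, 36 with array medians centred, 47 with quantile normalization and 125 with centring and the block. The result for the 10 may therefore depend on the setting.

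**Figure D3:**
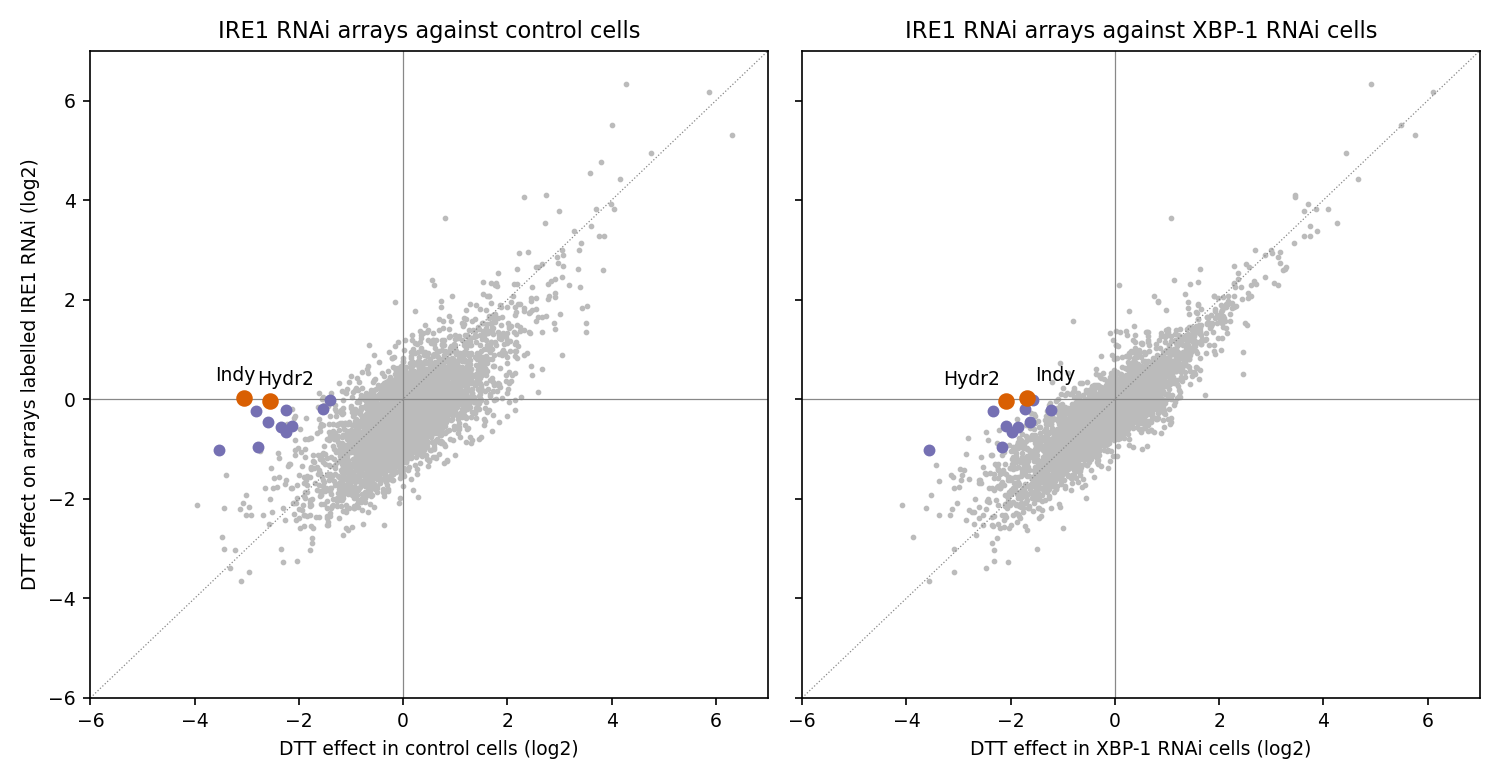
DTT effect of every tested probe on the arrays labelled IRE1 RNAi (vertical) against control cells (left) and XBP-1 RNAi cells (right), all log2; the diagonal marks equal effects, purple points the probes that share the pattern, and orange points Indy and Hydr2. Of the 208 probes that fell in both other arms, 161 also fell on the vertical axis, while Indy and Hydr2 sit near 0 there, at -3.05 and -2.56 across on the left and -1.69 and -2.09 on the right.

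Over the 18 arrays, Indy and Hydr2 correlated with r = 0.922, as a description over arrays that share the DTT groups. Both were chosen by their DTT effects on these arrays, which favours a high r. The median r of Indy with 4729 probes was -0.009 and that of Hydr2 -0.043. Hydr2 was the probe most like Indy, followed by mys, the integrin beta subunit (0.914), CG6805 (0.900), the semaphorin Sema1b (0.900) and SPARC (0.898). With array medians centred, mys (0.927) came before Hydr2 (0.924). Like Indy, mys had an XBP-1 RNAi effect between the other two arms (-1.64 ± 0.37 in control cells, -0.96 ± 0.37 with XBP-1 RNAi and -0.16 ± 0.37 on the arrays labelled IRE1 RNAi). Sema1b ran from -2.09 to -1.19 to -0.37 in that order, and CG6805 from -2.25 to -1.22 to -0.21. The XBP-1 RNAi calls of Sema1b and CG6805 were lost without single arrays, among them that arm's DTT replicate C. Hydr2 was most like Tsp42Ee (0.982) and CG44325 (0.965), then SPARC (0.946), the secreted glycoprotein gene Glt (0.943 over 16 arrays) and CG6805 (0.937), and Indy ranked 11th for it. Glt had effects of -2.21 ± 0.37 in control cells and -1.72 ± 0.37 with XBP-1 RNAi, and too few values for the third arm.

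No gene of the transporter and hydrolase lists other than Indy and Hydr2 was among the 12. Only genes tested in every arm could be, and some listed genes with a probe were not. Of 30 further cell-membrane transporter genes with a probe, 25 were tested in control cells, where 4 fell and 2 rose, with a median effect of 0.15, equal to that of all probes. With XBP-1 RNAi 7 of 24 fell and 2 rose (median -0.22), and on the arrays labelled IRE1 RNAi 3 of 25 fell and 3 rose (median -0.06, and 5 rose with the replicate block). Over all probes 4.45%, 11.8% and 10.5% fell in the control, XBP-1 RNAi and IRE1-labelled arms, and 7.25%, 4.53% and 3.48% rose. Picot, a putative inorganic phosphate cotransporter, rose by 3.83, 3.23 and 2.60, and the major facilitator MFS3 rose by 2.99, 3.62 and 3.79. The organic cation transporter Orct changed by -1.08, -2.58 and -1.62, and its control call was lost without any of several single arrays (adjusted p up to 0.212, without control DTT replicate B). The nucleoside transporter Ent2 fell by 1.73 in control cells and by 2.17 with XBP-1 RNAi, and had -1.12 ± 0.40 on the arrays labelled IRE1 RNAi (limma adjusted p = 0.0636). The amino-acid transporter path rose by 1.95 on the arrays labelled IRE1 RNAi, and had -0.16 and 0.82 in the other arms.

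Of 14 further alpha/beta-hydrolases with a probe, 12 were tested in control cells, where 3 fell and 1 rose (5 rose with the replicate block), with a median of 0.36. With XBP-1 RNAi 3 of 12 fell and 0 rose (median -0.10), and on the arrays labelled IRE1 RNAi 2 of 9 fell and 1 rose (median -0.39). The shares of all probes in the same order of arms were 4.45%, 11.8% and 10.5% for falls and 7.25%, 4.53% and 3.48% for rises. The esterase alpha-Est7 fell in all 3 arms, with effects of -2.11, -1.72 and -2.09, as did the juvenile hormone epoxide hydrolase Jheh2, with -1.90, -1.90 and -1.69. The related Hydr1 had -1.20 in control cells, at a limma adjusted p of 0.0497 that went above the threshold under several omissions (up to 0.0922, without control replicate A without DTT), and -0.56 with XBP-1 RNAi. Hydr1 had too few values for the third arm, so it could not meet the pattern.

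Secreted, matrix and adhesion proteins are made at the ER membrane. Of 20 tested, 13 fell in control cells, 11 with XBP-1 RNAi and 9 on the arrays labelled IRE1 RNAi, none rose, and the medians were -1.86, -1.54 and -1.06. With the replicate block 13, 14 and 11 fell, and 1 rose in control cells. Of all probes, 4.45%, 11.8% and 10.5% fell in these arms without the block, and 7.25%, 4.53% and 3.48% rose. The collagen IV chain vkg had effects of -3.13, -3.13 and -2.21, and Idgf3, a secreted chitinase-like growth factor, had -3.43, -3.08 and -3.0, all past the threshold. Falls were thus still measured on the arrays labelled IRE1 RNAi, where the intervals for Indy and Hydr2 spanned 0. All 13 genes that fell in control cells had a higher effect on those arrays, from 0.43 ± 0.55 higher for Idgf3 to 2.50 ± 0.57 for SPARC. The 13 were picked by a low control effect, which this difference subtracts. A higher value was thus favoured in advance, and nothing is read from its direction. For tested genes of the list that did not fall in control cells, the difference ran from -1.0 (Idgf4) to 0.64 (Sr-CI). None of the differences of the 13 passed in the fit without added scaling or replicate block (lowest limma adjusted p = 0.0693, for SPARC). Among the 13, LanA, mys and crq had -0.33, -0.16 and -0.56 there and did not pass. A small effect on those arrays was therefore not particular to Indy and Hydr2. The lists were drawn up with results of these data known, so these counts are no independent evidence of direction.

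**Figure D4:**
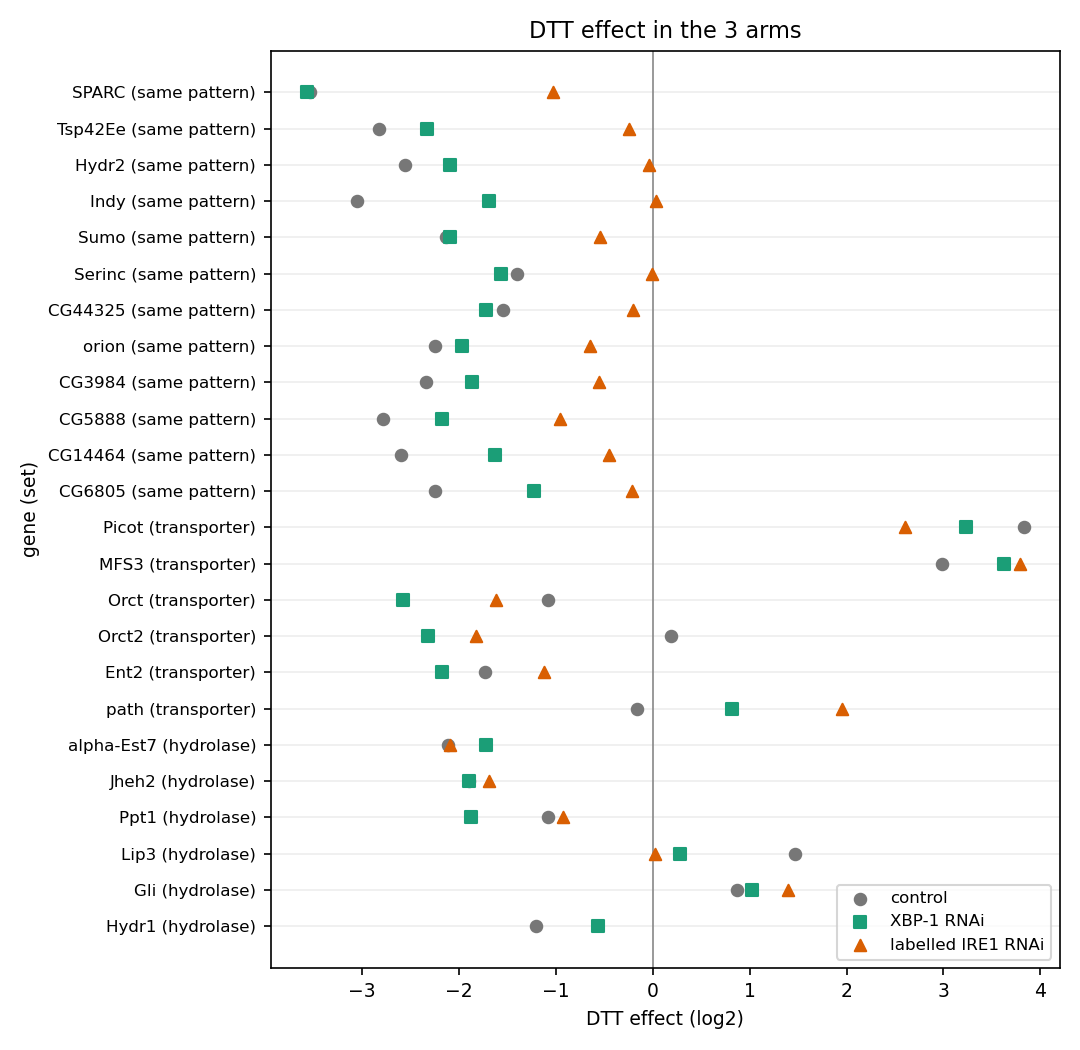
DTT effect (log2) of the 12 probes with the pattern, Indy and Hydr2 among them, and of named transporters and alpha/beta-hydrolases; each point is a limma estimate, and triangles are the arrays labelled IRE1 RNAi. Indy and Hydr2 lie near 0 on the arrays labelled IRE1 RNAi and far below 0 in the other arms, while Picot and MFS3 lie above 0 and alpha-Est7 and Jheh2 below 0 in all 3.

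Genes of the unfolded protein response, some of them targets of XBP-1, are given beside these values. Of 15 tested, 8 rose and 0 fell in control cells, 4 rose and 5 fell with XBP-1 RNAi, and 4 rose and 2 fell on the arrays labelled IRE1 RNAi (4 fell with the replicate block). Beside these stand 7.25%, 4.53% and 3.48% of all probes that rose, and 4.45%, 11.8% and 10.5% that fell. Thor, a translation repressor that binds eIF4E, had the largest effect of the list and rose by 2.73 in control cells, with 4.27 under XBP-1 RNAi and 3.53 on the arrays labelled IRE1 RNAi. The ER chaperone gene Hsc70-3 (BiP) rose by 2.92 in control cells, by 1.24 with XBP-1 RNAi and by 1.41 on the arrays labelled IRE1 RNAi. Its calls in the RNAi arms were lost under quantile normalization (limma adjusted p = 0.214 and 0.0990) and without single arrays (up to 0.393, without XBP-1 RNAi DTT replicate C, and up to 0.0884, without replicate B labelled IRE1 RNAi without DTT).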

How the data were processed

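Total RNA was measured on 18 arrays. Per the labels, the authors used the NOMAD database for normalization and discarded spots less than 1.5-fold above background, with an R2 between channels below 0.5, or visibly defective; the deposited values were read as log2 ratios. Scanner intensities were not used here. Probe numbers were matched as CG numbers to RefSeq's Release 6 gene table (6683 by locus tag, 457 by synonym, 107 to several genes, 10 to none). A group-means model was fitted to every probe with at least 2 values per group in limma 3.58.1 (R 4.3.3), with Benjamini-Hochberg adjustment per contrast over all probes tested, 2-sided, at 0.05; it was tested on simulated data. The other genes named are the 5 most correlated with each gene over at least 16 arrays, the first 10 with the same pattern, up to 6 per list by size of effect, and the RNAi targets and Hsc70-3. Genes and lists were chosen with earlier results of these data known. Alternatives were median centring, quantile normalization, the replicate letter as a block, both together, complete probes, and each array left out. Same-letter arrays deviated together (r 0.012 to 0.721 over 45 pairs, 44 over 0.1; all over 0.1 within each arm's DTT comparison). Signal over background is unknown here, so the number of arrays limits the precision. Protein sequences were not used here, so hydrophobic stretches were not computed.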

Additional observations from a re-analysis of the deposited data

Results flagged for a closer look

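A difference between XBP-1 RNAi and control cells in the DTT effect itself passed the interaction test of the limma fit for 4 named genes, among 44 of 5483 probes that passed, all with a lower effect under XBP-1 RNAi (69 lower and 13 higher with array medians centred). Of the unfolded protein response list, Gp93, P58IPK, Calr and Hrd3, named here after their values were seen, also passed, with differences of -2.72, -2.19, -2.20 and -2.19. The whole set depends on single arrays: without control DTT replicate A, 0 of 5199 probes passed, so Gp93, P58IPK, Calr and Hrd3 did not pass either. Other omissions gave up to 94, without control DTT replicate B. The difference was -2.90 ± 0.54 (SE, limma adjusted p = 0.0106) for Ero1L, the ER oxidase, which rose by 3.50 in control cells and had 0.61 with XBP-1 RNAi. It was -2.75 ± 0.54 (adjusted p = 0.0126) for Pdi and -2.50 ± 0.52 (adjusted p = 0.0173) for ERp60, which are protein disulphide isomerases. It was -2.52 ± 0.55 (adjusted p = 0.0273) for the organic cation transporter Orct2, which had 0.19 in control cells and fell by 2.32 with XBP-1 RNAi. Leaving out single arrays ended the call in 1 of 18 fits for Ero1L, 2 for Pdi, 5 for ERp60 and 6 for Orct2, and the omission of control DTT replicate A ended it for each of the 4; adjusted p-values over these fits reached 0.0545, 0.0658, 0.0976 and 0.125. For Indy and Hydr2 the same difference was positive, 1.37 and 0.47.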

How the results depend on the processing

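No direction of a called value was reversed under any alternative. The DTT effects of Indy and Hydr2 and the comparisons without DTT moved by less than the spread between replicates under each. The IRE1 RNAi minus control difference of the DTT effect on Hydr2 rose from 2.52 to 2.92 with array medians centred, with or without the replicate block (2.92), and to 3.10 with quantile normalization; within DTT, that gene's difference rose from 2.51 to 2.93 with centring, with or without the block (2.93). The number of probes with the pattern was 20 with centring, 30 with quantile normalization, 20 with centring and the block, 15 with the replicate block alone and 8 among complete probes; leaving out single arrays gave 7 to 17. The paired fit, with the replicate block, left the DTT effect on Indy in control cells at -3.05 and lowered its SE from 0.41 to 0.32. It moved the numbers of probes that fell and rose with DTT from 264 and 430 to 470 and 694 in control cells, from 665 and 256 to 1011 and 493 with XBP-1 RNAi, and from 610 and 203 to 998 and 307 on the arrays labelled IRE1 RNAi. Centring turned the same splits into 717 and 704, 933 and 825, and 802 and 519. The comparison of hydrophobic stretches was not run. Values on the array with 48.3% of its probes empty, and the unstated scaling between arrays, limit what these 18 arrays resolve.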

Other observations

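Citrate is a metabolite that Indy transports, and a list of genes of citrate transport, citrate use and nearby metabolism was counted. Not every gene of the list acts on citrate itself. Of 15 tested in control cells, 1 fell and 3 rose (median effect -0.46; 5 fell and 4 rose after centring). With XBP-1 RNAi 4 of 14 fell and 1 rose (median -0.46), and on the arrays labelled IRE1 RNAi 5 of 14 fell and 1 rose (median -0.84). After centring 3 rose with XBP-1 RNAi and 2 on the arrays labelled IRE1 RNAi, and with the replicate block 6 fell with XBP-1 RNAi. Without centring or block, 4.45%, 11.8% and 10.5% of all probes fell in the control, XBP-1 RNAi and IRE1-labelled arms, and 7.25%, 4.53% and 3.48% rose. AcCoAS, acetyl-CoA synthetase, fell in all 3 arms, with effects of -2.06, -2.12 and -2.42 in the same order, and the malic enzyme Men rose by 2.04, 1.56 and 1.47. The ATP citrate lyase gene ATPCL, named here after its values were seen, rose by 1.21 in control cells. It had 0.36 with XBP-1 RNAi and 0.18 on the arrays labelled IRE1 RNAi. The citrate synthase kdn fell by 1.53 with XBP-1 RNAi and by 1.61 on the arrays labelled IRE1 RNAi, and had -0.51 in control cells. The aconitase mAcon1 fell in the RNAi arms, with -1.54 and -1.46, and had -0.02 in control cells. The difference of these effects from control passed in neither RNAi arm (limma adjusted p = 0.640 and 0.517 for kdn, and 0.213 and 0.338 for mAcon1). Of 5 blood-cell markers tested in each arm, 1 passed the threshold in each, downwards (2 with XBP-1 RNAi after centring or with the replicate block, which also gave 1 rise in control cells). The scavenger receptor crq fell by 1.6 in control cells and by 1.44 with XBP-1 RNAi, and had -0.56 ± 0.39 on the arrays labelled IRE1 RNAi (limma adjusted p = 0.422). Pxn, a secreted peroxidase, had -0.52 and -1.09 in those arms and fell by 1.32 on the arrays labelled IRE1 RNAi, a call lost without either of 2 single arrays there (-1.05 without replicate A without DTT and -1.12 without DTT replicate C). The other 3 markers, NimC1, srp and Sr-CI, passed in no arm and ran from -0.22 to 1.03.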
